A study of Mus musculus with 1989 samples.

Results

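Arpp21, Endou, Rmnd5a, Mier1 and Gm4258 are 5 of the 8846 genes in a single-cell RNA sequencing (scRNA-seq) table of mouse thymocytes. They were picked because they lead the expression of noncycling CD4/CD8 double-positive (DP) cells, so their RNA levels in the groups of cells below are a description and were not tested. Their chromatin, measured in other cells as accessibility to a transposase in single cells (scATAC-seq), played no part in the choice. All 5 were found in the RNA table, and 66 non-overlapping peaks of 62409 lay over their loci.

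The study followed thymocytes from double-negative (DN) cells, which lack CD4 and CD8, through DP cells to CD4 or CD8 single-positive (SP) cells. The thymuses came from male C57BL/6 mice of 7 weeks, untreated as far as the labels say, and no animal is named. One 10x library gave 1993 cells, with 0 repeated barcodes. The scATAC-seq cells used here were 182 sorted DN, 125 sorted DP, 119 sorted CD4, 116 sorted CD8 and 1084 plated cells of total thymus, and each sort counts as 1 sample. With 1 sample per group no test between groups is possible. The SD given with a mean log2 level is the spread over cells of that library, and the intervals are 95% intervals that cover counting error only.

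DP thymocytes divide in a burst, stop, and then rearrange the T cell receptor alpha gene with the Rag1 and Rag2 recombinase until a receptor is selected. The 5 genes have different functions. Arpp21 encodes a cAMP-regulated phosphoprotein with an R3H domain that binds RNA, and Endou an endoribonuclease that cuts at uridines. Rmnd5a is the RING subunit of the CTLH ubiquitin ligase, and Mier1 a corepressor that recruits histone deacetylases. Gm4258 is a long noncoding RNA, and miR-181a, made from one of the hairpins inside it, is known for tuning how strongly DP cells respond to receptor signals.

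In the GENCODE M21 annotation of GRCm38, Arpp21 lies on the minus strand at chr9:112065091-112235938. Endou lies on the minus strand at chr15:97711015-97731339 and Rmnd5a on the minus strand at chr6:71388634-71440637. Mier1 lies on the plus strand at chr4:103114390-103165754 and Gm4258 on the plus strand at chr1:137898595-138000384. The genes overlap others: 2310075C17Rik and 2900079G21Rik with Arpp21, Gm44130 with Rmnd5a, Wdr78 with Mier1, and A430106G13Rik, among others, with Gm4258. How reads in the overlaps were assigned was not tested.

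A pair of the genes are hosts of microRNA hairpins. Mir128-2 lies 117 kb into Arpp21, and Mir181a-1 and Mir181b-1 lie 67.9 and 68.0 kb into Gm4258. Their main mature forms are shown from RefSeq (GRCm38.p6) because a reader may know the host genes better by them. They were not measured here. Capitals mark the seed, bases 2 to 8, which miR-181a-5p and miR-181b-5p share.
mmu-miR-128-3p: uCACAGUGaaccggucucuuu
mmu-miR-181a-5p: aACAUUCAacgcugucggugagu
mmu-miR-181b-5p: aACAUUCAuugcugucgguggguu

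Regions on which the chromatin comparison bears are shown next. The first are the most counted peak of the Arpp21 locus and an inner peak of Endou, each by its central 300 bases on the plus strand of GRCm38.p6, both in an intron. The others are the 250 bases before a RefSeq start of Arpp21 and of Rmnd5a, on the strand of the gene, each inside a peak. The Rmnd5a start is shown as a region whose signal was near even between sorts. Capitals mark the letters CAGCTG and CACCTG (E boxes, bound by E proteins), and TGTGGT (bound by Runx factors), searched on both strands, so that CACCTG on the other strand reads CAGGTG.
Arpp21 intron, chr9:112207862-112208161: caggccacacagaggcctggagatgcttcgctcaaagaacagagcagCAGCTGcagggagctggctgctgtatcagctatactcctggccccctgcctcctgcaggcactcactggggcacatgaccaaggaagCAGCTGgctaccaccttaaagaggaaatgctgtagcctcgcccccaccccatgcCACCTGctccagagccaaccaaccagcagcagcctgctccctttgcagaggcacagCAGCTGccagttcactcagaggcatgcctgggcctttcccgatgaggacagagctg
Endou intron, chr15:97721188-97721487: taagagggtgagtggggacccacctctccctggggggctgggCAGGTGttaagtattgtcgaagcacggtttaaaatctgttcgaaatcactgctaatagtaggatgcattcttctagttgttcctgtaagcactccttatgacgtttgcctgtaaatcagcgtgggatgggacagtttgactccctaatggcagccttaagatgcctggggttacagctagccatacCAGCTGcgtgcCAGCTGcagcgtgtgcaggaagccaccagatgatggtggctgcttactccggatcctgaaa
Arpp21 start, chr9:112217352-112217601: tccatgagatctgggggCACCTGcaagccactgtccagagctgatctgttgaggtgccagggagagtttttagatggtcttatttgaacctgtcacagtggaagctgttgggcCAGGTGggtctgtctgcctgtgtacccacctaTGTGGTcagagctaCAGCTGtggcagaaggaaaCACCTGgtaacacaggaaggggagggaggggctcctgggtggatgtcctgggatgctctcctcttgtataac
Rmnd5a start, chr6:71440638-71440887: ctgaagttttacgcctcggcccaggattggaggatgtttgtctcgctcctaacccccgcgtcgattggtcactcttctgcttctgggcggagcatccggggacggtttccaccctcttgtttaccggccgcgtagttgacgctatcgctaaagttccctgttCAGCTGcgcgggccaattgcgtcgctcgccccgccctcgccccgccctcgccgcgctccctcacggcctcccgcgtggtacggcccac

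The Arpp21 intron window held CAGCTG 3 times and CACCTG 1 time. Among the central 300 bases of 62409 peaks, 21.6% held CAGCTG and 0.463% held it 3 times or more. The Endou window held CAGCTG 2 times, and 3.32% of peaks held it 2 times or more. It held CACCTG 1 time, and 28.2% of peaks held it at all. Other named peaks differed: the start peak of Endou, its most counted, held 0 CAGCTG, and the central windows of an intron peak each of Endou (chr15:97723653-97727652), Rmnd5a (chr6:71408132-71412131) and Mier1 (chr4:103121749-103125748) held 0 CAGCTG and 0 CACCTG. The Arpp21 start held CACCTG 3 times, and 0.247% of 32851 RefSeq promoters of that length held it 3 times or more. It also held 1 CAGCTG and 1 TGTGGT. The Rmnd5a start held 1 CAGCTG, found in 13.0% of promoters. The RefSeq starts of Mier1 and Gm4258 inside peaks held 0 CAGCTG and 0 CACCTG in the 250 bases before them. A match of letters is a description of the sequence and not a bound site.

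Cells were grouped by clustering, and clusters were named from known markers. The rearrangement-stage (DPre-like) cells, with Cd8b1, Cd8a and Rag1 among the 10 leading genes of both clusters, were 375 cells in clusters 0 and 1, or 18.8% of the library. The cycling classes were 163 immature single-positive-like (ISP-like) and 339 blast-like (DPbla-like) cells. The DPsel-like class, at selection, held 336 cells, the CD4sp-like and CD8sp-like classes 148 and 145, and the DN-like class 78. Clusters 5, 8 and 13, with 342 cells, stayed unnamed. The 5 genes were themselves among the genes that built the clusters.

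Gm4258 was the most abundant of the 5 in DPre-like cells by mean log2 level, with no correction for transcript length. Its values had a quartile range of 2.56 to 3.79 around a median of 3.31, and the mean was 3.07 ± 1.05 (SD, n = 375 cells). Cycling cells averaged 1.77 ± 0.91 and DPsel-like cells 1.51 ± 1.42. SP-like cells, CD4sp-like and CD8sp-like together, averaged 0.47 ± 0.74. The level in DPre-like cells thus stood above that in all 3 others by more than 1 SD over DPre-like cells. It did not for some of their parts, as DPbla-like cells alone averaged 2.08 ± 0.82 and DPsel-like cluster 4 averaged 2.48 ± 1.23.

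Arpp21 averaged 2.17 ± 1.06 in DPre-like cells, with quartiles of 1.63 and 2.99 around a median of 2.29. It averaged 1.56 ± 0.80 in cycling cells, 0.38 ± 0.73 in DPsel-like cells and 0.26 ± 0.57 in SP-like cells. In DN-like cells, however, Arpp21 was at 2.37 ± 1.07 (n = 78), with 93.6% of cells above 0 (95% exact interval 85.7 to 97.9%). Its level was therefore not limited to the rearrangement stage, and the mean in DN-like cells and that in DPre-like cells differed by less than the spread over cells.

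Endou averaged 2.04 ± 1.07 in DPre-like cells, 1.66 ± 0.88 in cycling cells, 0.47 ± 0.76 in DPsel-like cells and 0.26 ± 0.52 in SP-like cells. DPbla-like cells were at 1.91 ± 0.83, and their cluster 12, led by genes of mitosis such as Cenpf and Ccnb2, reached 2.30 ± 0.72. Cluster 12 was deeper (median of 5026.5 steps per cell, against 1947.5 in cluster 1), and with each cell thinned to 1300 steps, a stand-in for molecules, Endou was found in 86.2% of DPre-like cluster 1, 80.6% of DPre-like cluster 0 and 75.0% of cluster 12. Over whole classes it was then found in 83.2% of DPre-like and 62.2% of DPbla-like cells. The place of cluster 12 above the DPre-like clusters was thus not seen at equal steps. Endou in DN-like cells was at 0.90 ± 0.95, so it differed there from Arpp21.

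Rmnd5a averaged 1.77 ± 1.11 in DPre-like cells, 1.12 ± 0.79 in cycling cells, 0.54 ± 0.79 in DPsel-like cells and 0.38 ± 0.59 in SP-like cells. DN-like cells held as little of it as SP-like cells, at 0.39 ± 0.59. Mier1 averaged 1.78 ± 1.14 in DPre-like cells, 0.93 ± 0.69 in cycling cells, 0.70 ± 0.84 in DPsel-like cells and 0.58 ± 0.74 in SP-like cells. Mier1 in DN-like cells was at 1.17 ± 0.91. The order of the levels in DPre-like cells was Gm4258, Arpp21, Endou, Mier1 and Rmnd5a, and neighbours in it differed by less than the spread over cells.

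The 2 DPre-like clusters were not equal. Cluster 1, where Rag1 was highest at 2.31 ± 1.23, held more of every member than cluster 0, where Rag1 was at 1.70 ± 1.04. Mier1 differed most, at 2.21 ± 1.09 in cluster 1 (n = 174 cells) and 1.41 ± 1.05 in cluster 0 (n = 201). Endou differed least, at 2.17 ± 1.06 and 1.93 ± 1.07. The members took part in forming these clusters, so these are descriptions, and each difference was smaller than the SD over cells.

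**Figure D1:**
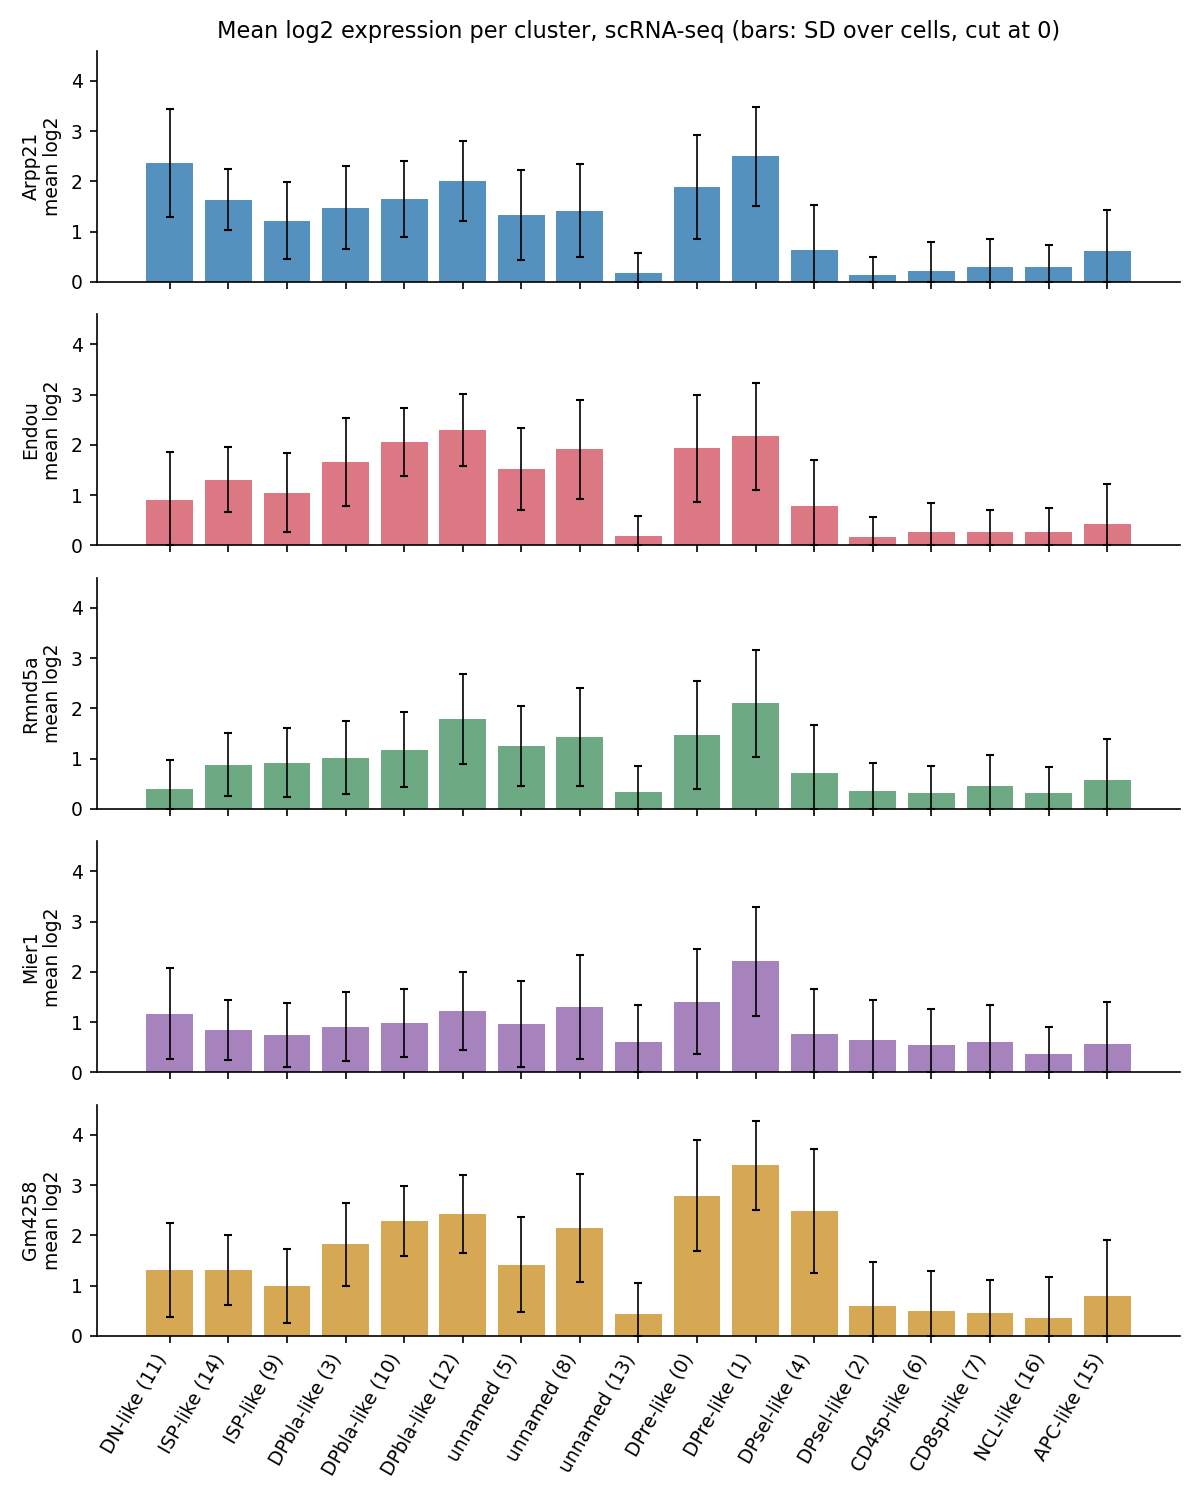
Mean log2 level of each member (y axis, 1 panel per gene) in the 17 clusters of the scRNA-seq library (x axis, class and cluster number). Bars are means and lines are the SD over cells, cut at 0. DPre-like cluster 1 is the highest for Arpp21 (2.5), Rmnd5a (2.10), Mier1 (2.21) and Gm4258 (3.39), while the Endou bar is tallest in the deeper DPbla-like cluster 12 (2.30), an order that turns at equal steps (75.0% of its cells against 86.2% of cluster 1), and Arpp21 is also high in the DN-like cluster 11 (2.37).

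The drop after rearrangement was not at the same place for the 5 genes. DPsel-like cluster 4, with an early level of the selection marker Itm2a (1.17), still held Gm4258 at 2.48 ± 1.23 (n = 163 cells). The other 4 were already at 0.64 (Arpp21), 0.79 (Endou), 0.72 (Rmnd5a) and 0.76 (Mier1) there. In DPsel-like cluster 2, where Itm2a reached 3.06, Gm4258 was at 0.60 ± 0.88 (n = 173). With each cell thinned to 1300 steps, Gm4258 was found in 84.7% of cluster 4 cells and Arpp21 in 31.9%.

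Cells were also ordered by population balance analysis, from DPbla-like to SP-like ends, in 20 bins of 96 or 97 cells. The order was built from the same cells and principal components as the clusters, so it is another view and not separate evidence. Arpp21 peaked at 2.36 in the bin from 0.55 to 0.60 of the order, and Endou at 2.23 and Mier1 at 2.11 in the bin before it. Between the bins that start at 0.60 and 0.65, Arpp21 went from 1.80 to 0.69 and Rmnd5a from 1.93 to 0.65, as Rag1 went from 1.41 to 0.51. Gm4258 went from 3.07 to 2.37 there, to 1.43 in the next bin and to 0.55 in the one after, where Itm2a was highest at 3.07. DN-like cells sat inside the order, mostly from 0.35 to 0.40. ISP-like cells were the commonest class from 0.15 to 0.25, after bins where DPbla-like cells were. The order is therefore not read as a line of time before the DPre-like cells. Arpp21 at 1.99 and Rmnd5a at 0.77 differed in the bin from 0.35 to 0.40.

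**Figure D2:**
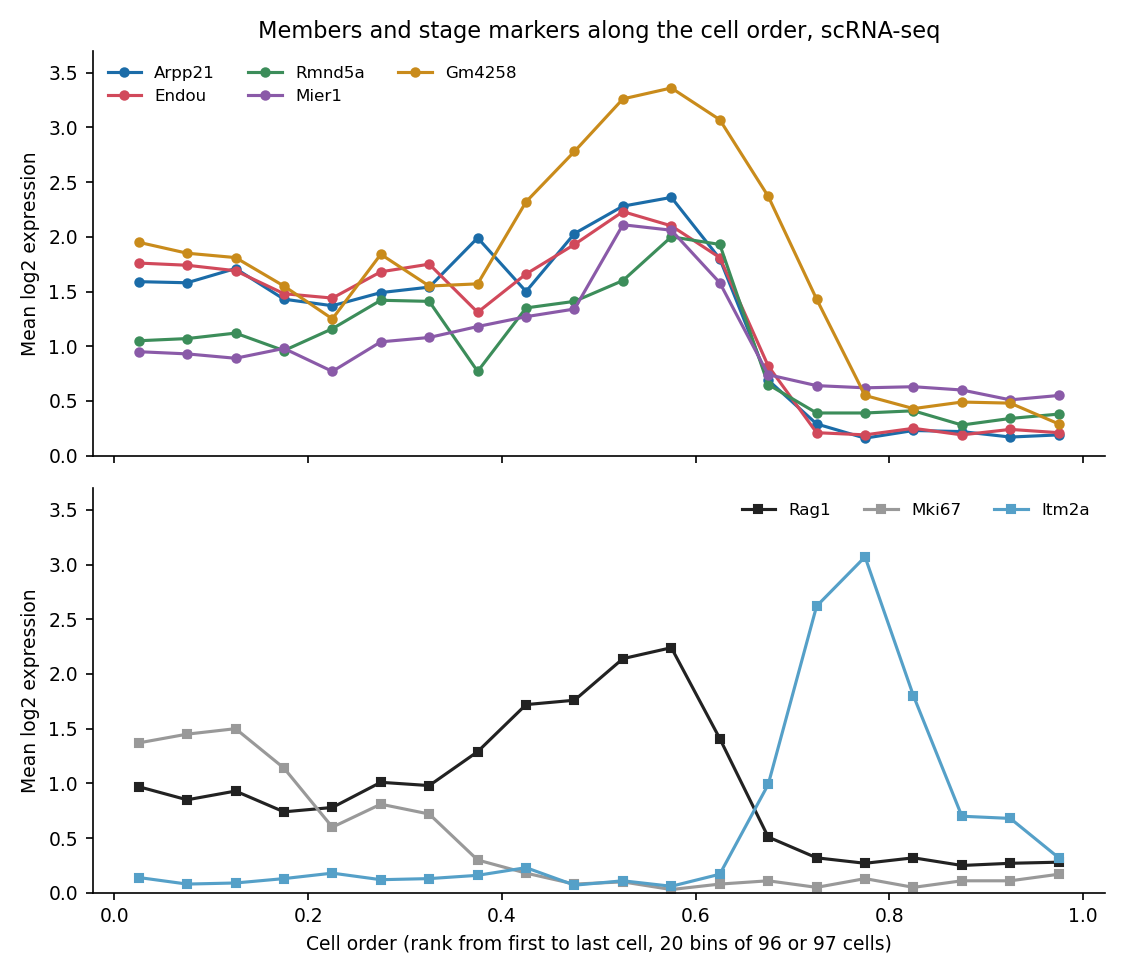
Mean log2 level (y axis) of the 5 members (upper panel) and of Rag1, Mki67 (cell division) and Itm2a (selection, lower panel) in 20 equal bins of 1926 ordered thymocytes (x axis, rank from 0 to 1). Points are bin means. The members are highest between 0.5 and 0.65, and Gm4258 falls later than the other 4, reaching 0.55 in the bin from 0.75 to 0.80.

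A comparison of DPre-like with cycling cells asks which genes go with the end of division. A gene was called where the difference of means was at least 0.5 log2. In this comparison 0.988% of 4757 genes were called higher and 7.76% lower, with a median of -0.021 over all genes. The difference was 1.3 for Gm4258 (rank 3 from the highest), 0.85 for Mier1 (rank 12), 0.64 for Rmnd5a (rank 24) and 0.62 for Arpp21 (rank 28). Endou, at 0.38 (rank 73), was not called. The count of 4 of 5 restates the choice of the members. Cycling cells were deeper, with a median of 2608.5 detected genes against 1219 in DPre-like cells, and the part of depth in these differences was not tested beyond the thinned values. With thinning the differences were 1.05 for Gm4258, 0.72 for Mier1, 0.57 for Rmnd5a, 0.60 for Arpp21 and 0.53 for Endou. These are on another scale, log2(steps + 1), on which 0.5 is not the same call.

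DPre-like cells against DPsel-like cells had like depths (medians of 1219 and 1216 detected genes). Here 2.88% of 2254 genes were called higher, and all 5 members were. The differences were 1.79 for Arpp21 (rank 4), 1.57 for Endou (rank 8), 1.56 for Gm4258 (rank 9), 1.23 for Rmnd5a (rank 13) and 1.08 for Mier1 (rank 18). Against SP-like cells 3.0% of 2500 genes were called higher, and again all 5 were. The differences were 2.60 for Gm4258, the highest of all genes compared, 1.91 for Arpp21, 1.78 for Endou, 1.39 for Rmnd5a and 1.20 for Mier1. The DPre-like cells are shared by the 3 comparisons. The members were chosen for their level in noncycling DP cells of this library and helped to form the clusters. That all 5 were called is therefore a description and adds no support to the choice.

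**Figure D3:**
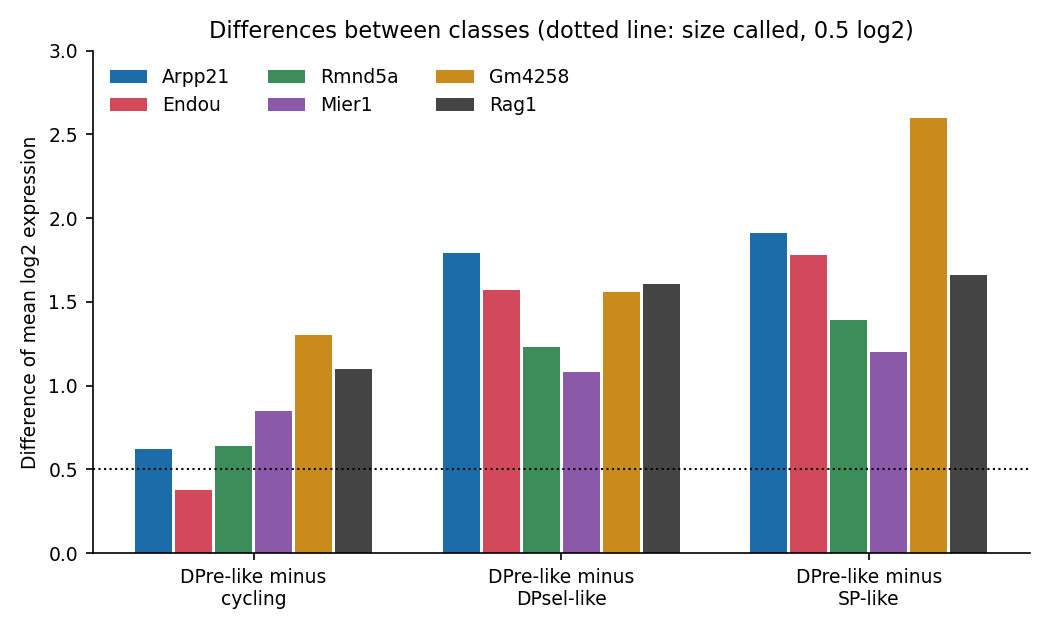
Difference of mean log2 level (y axis) between DPre-like cells and cycling, DPsel-like or SP-like cells (x axis) for the members and Rag1. The dotted line marks the 0.5 log2 used for a call. Only the Endou bar against cycling cells (0.38) lies under it.

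In droplets, free RNA gives a low share of cells with a gene in any cell type. NCL-like cells (nonconventional lymphocytes), a cluster of 31 cells led by AW112010, Id2 and Nkg7, were taken as a type that should lack these genes, which was not tested. After thinning, Arpp21 was found in 19.4% of NCL-like cells (7.45 to 37.5%, exact) and in 14% of SP-like cells, against 84.3% of DPre-like cells (80.2 to 87.8%). Without thinning the shares were 32.3%, 25.6% and 92.8%, at median depths of 1938, 2267 and 1905 steps. Endou was found after thinning in 22.6% of NCL-like, 12.3% of SP-like and 83.2% of DPre-like cells. For Rmnd5a the thinned shares were 19.4%, 21.8% and 72.5%, for Mier1 29.0%, 30.0% and 72.5%, and for Gm4258 19.4%, 25.6% and 92.8%. The SP-like shares of Arpp21 and Endou were below, and the other 3 inside the interval of, the NCL-like shares. These intervals rest on 31 cells and are wide (14.2 to 48.0% for Mier1), and NCL-like cells may themselves express the genes. The comparison therefore cannot tell whether SP-like cells express them. In the 36 APC-like (antigen-presenting) cells the thinned shares were 33.3% for Arpp21, 13.9% for Endou, 22.2% for Rmnd5a, 30.6% for Mier1 and 33.3% for Gm4258, so the reference types did not give 1 common level.

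All 5 genes were found together in 136 of 375 thinned DPre-like cells (36.3%, 31.4 to 41.4%), and 4 of the 5 in 147 (39.2%). No DPre-like cell lacked all 5, which allows a share of up to 0.979% by the exact interval. In cycling cells 4.18% held all 5, in DPsel-like cells 2.08% and in SP-like cells 1.02%. These shares depend on how often each gene was found singly. The share expected for all 5 without any link between them was not computed, so they do not show that the genes go together within cells.

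Across the 15 thymocyte clusters the means of the members moved together, with Pearson's r from 0.726 (Arpp21 and Rmnd5a) to 0.926 (Endou and Rmnd5a). The genes were chosen for a shared high level and helped to form the clusters, which fixes such values beforehand. The points also share 1 library and its normalization. Over single DPre-like cells the same pairs had r from 0.0504 (Rmnd5a and Gm4258) to 0.161 (Arpp21 and Gm4258), weak values in sparse data that are no finding. All 10 of these values were positive. The share of thinned DPre-like cells that held both genes of a pair was above the product of the single shares in 6 of 10 pairs, most for Rmnd5a and Gm4258 (68.5% against 67.3%), and below it in 4, such as Arpp21 and Gm4258 (78.1% against 78.2%).

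Genes with like cluster means were sought among 6856 genes. The closest to the mean of the members were Themis (r = 0.953), needed for positive selection, and Rag1 (r = 0.951), followed by Aqp11 (0.939), an aquaporin, Ilvbl (0.934), Gtf2h4 (0.931), a subunit of TFIIH, Nim1k (0.926), Nebl (0.921), Gm37065 (0.920), Prrt1 (0.919) and Lig4 (0.915), the ligase of end joining. By member, the closest to Arpp21 were Aqp11 (0.981), Rapgef3 (0.966), an exchange factor activated by cAMP, and Rcsd1 (0.960). Those of Endou were Agfg2 (0.976), Rcbtb2 (0.962) and Cyb5a (0.955), and those of Rmnd5a were Prep (0.929), Gtf2h4 (0.928) and Nim1k (0.924). Mier1 was closest to Rag1 (0.969), then Ilvbl (0.941) and Prodh (0.940), a proline dehydrogenase. Gm4258 was closest to Ntrk3 (0.947), Lig4 (0.938) and Ldhb (0.934). All values are over the same 15 clusters, which the members helped to form, and are the highest among the 6856 genes. Rag1 was also a marker that named clusters. Several of these genes were low throughout. The highest cluster mean was 0.28 for Nim1k, 0.29 for Lig4, 0.31 for Prodh, 0.35 for Prrt1 and 0.38 for Prep.

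Most partners of the members in known complexes had low levels, at which a rise of 0.5 log2 could hardly be seen. Maea, the other RING subunit of CTLH, was at 0.11 in DPre-like and 0.09 in cycling cells. Of the 10 other CTLH subunits 6 were compared between DPre-like and cycling cells and 0 passed 0.5 log2 in either direction, with a median of 0.03. The largest difference was 0.13 for Ypel5, while Rmnd5b, the paralog of Rmnd5a, was at -0.01. Of the Mier and histone deacetylase list 3 were compared and 0 passed, with Hdac1 at -0.36 and Hdac2 at -0.30 against 0.85 for Mier1. In the list of Arpp and R3H genes 1 of 5 passed, and it was lower: Arpp19, an inhibitor of the phosphatase PP2A in mitosis, differed by -0.96. Of 7 other RNA nucleases and decay factors 0 passed. With 0.988% of all genes called higher and 7.76% lower, counts of 0 in lists this short are near the background and say nothing particular about them. Against DPsel-like cells 0 of 3, 0 of 2, 0 of 3 and 0 of 6 of these lists passed.

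Of the recombination machinery, Rag1 was higher in DPre-like cells by 1.10 than in cycling, by 1.61 than in DPsel-like and by 1.66 than in SP-like cells. Dntt, which adds bases at the joints, differed by 0.36, 1.93 and 2.07, and Xrcc6, the Ku70 subunit, by 0.21, 0.94 and 0.98. Of this list 10 genes were measured and 5 were compared. Against cycling cells 1 passed, where 0.988% of all genes did, and the median of the list was 0.21. Against DPsel-like and SP-like cells 3 passed each time, where 2.88% and 3.0% of all genes did. Rag2 was low throughout, at 0.40 ± 0.65 in DPre-like cells. In the quiescence list 4 of 8 were higher than in cycling cells, namely the antiproliferative genes Btg1 (1.34) and Btg2 (0.79), the translation inhibitor Pdcd4 (0.53) and Ypel3 (0.61), and the kinase inhibitor Cdkn2d was lower (-0.62). Against DPsel-like cells 1 of 8 was higher, Btg2 (0.91), and against SP-like cells 1 of 10, Btg2 (1.02), with a median of -0.01, Btg1 at -0.11 and Klf2 at -1.65. Against cycling cells Cd8b1 (1.37) and Satb1 (0.78) also passed, and the E proteins Tcf12 (0.32) and Tcf3 (-0.19) did not. Against DPsel-like and SP-like cells Cd8b1 (2.55 and 2.27) and Tcf12 (0.66 and 0.8) passed, and Tcf3 (0.02 and 0.08) did not. Satb1 was at -0.1 against DPsel-like and 1.13 against SP-like cells. Of 12 genes of the cell cycle 10 were lower in DPre-like than in cycling cells. Genes of the cycle and Rag1 were among the markers that named the classes, so their differences from cycling cells follow from the naming. The differences of Rag1 from DPsel-like and SP-like cells follow from it as well.

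The chromatin of the loci was compared by the counts in non-overlapping peaks over each gene and the 5 kb before its start. The labelled sorts were first checked at markers. Sorted DP cells had the highest signal of the sorts at Cd8b1 (2.77 per 10000 counts) and Cd8a (1.54), and CD8 sorted cells had more than CD4 sorted cells at Cd8a (1.02 and 0.293). The Cd4 locus did not follow the CD4 sort, at 1.11 in CD4, 1.52 in CD8 and 1.54 in DP sorted cells. Il2ra, a DN marker, went the other way, at 1.67 in DN and 2.52 in DP sorted cells, and Cd74, an antigen-presenting marker, was at 0.469 in DN, 0.762 in CD4 and 0.035 in DP sorted cells. Median counts per cell were 3377.5 in DN, 3866 in DP, 2571 in CD4 and 3935.5 in CD8 sorted cells, and sorted cells ranged from 1 to 29445. The part of other cell types in the sorts was not tested.

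At Arpp21 the signal was 3.16 per 10000 in DN, 3.85 in DP, 1.88 in CD4 and 1.90 in CD8 sorted cells (209, 110, 64 and 56 counts). The DN and DP values were both above those of the SP sorts, and the DP interval (3.17 to 4.64) did not overlap those of CD4 (1.45 to 2.40) or CD8 (1.43 to 2.46). The ratio of DP to SP sorted cells was 2.04 (1.56 to 2.67) and that of DP to DN was 1.22 (0.958 to 1.54), but 3.49 (1.41 to 9.83) from 19 and 7 counts among cells with label numbers from 31000.

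At Endou the signal was 1.09 in DN, 1.86 in DP, 0.557 in CD4 and 1.02 in CD8 sorted cells (72, 53, 19 and 30 counts). DP was the highest, and its ratio was 2.41 (1.60 to 3.63) to SP and 1.70 (1.17 to 2.46) to DN. At Rmnd5a the signal was 2.10 in DN, 2.42 in DP, 1.35 in CD4 and 1.97 in CD8 sorted cells. The ratios were 1.48 (1.07 to 2.02) to SP and 1.15 (0.848 to 1.54) to DN, and the latter was 2.18 (1.21 to 4.13) among cells with label numbers from 4000, so the call at 1.5 depends on the cells used.

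At Mier1 the signal was 1.33 in DN, 2.31 in DP, 1.44 in CD4 and 1.83 in CD8 sorted cells, with ratios of 1.43 (1.03 to 1.96) to SP and 1.74 (1.24 to 2.41) to DN. At Gm4258 it was 0.939 in DN, 1.96 in DP, 1.17 in CD4 and 2.24 in CD8 sorted cells. The ratio of DP to DN was 2.09 (1.43 to 3.05). The ratio to SP was 1.18 (0.836 to 1.64), an interval that holds 1, although Gm4258 RNA had the largest difference between DPre-like and SP-like cells of all genes compared. CD8 sorted cells had as much signal at Gm4258 as DP cells, within counting error.

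Against these values, 9.72% of 2223 genes had a ratio of DP to SP of 1.5 or more, with a median of 1.01, and 2 of the 5 members did (Arpp21 and Endou). For DP to DN, 11.4% of 2285 genes had such a ratio, with a median of 1.05, and 3 members did (Endou, Mier1 and Gm4258). Both comparisons share the DP cells. Under every alternative run, Arpp21 (1.78 or more) and Endou (1.83 or more) stayed past 1.5 to SP, and Gm4258 (1.72 or more) to DN. The other calls turned with the peaks or cells used. With the peaks nearest to a start of the gene Endou was 1.35 (0.982 to 1.85) and Mier1 1.45 to DN, and Gm4258 was 1.57 to SP. With peaks within 2 kb of a start Arpp21 was 1.59 to DN and Mier1 1.51 to SP. In the recombination list 3 of 4 genes passed to SP and 1 of 3 to DN, with Dntt in both, and in the CTLH list 1 of 2 and 1 of 3 did, Ypel5 each time. Of the quiescence list 2 of 7 passed to SP and 3 of 7 to DN, of the Arpp and R3H list 1 of 3 and 0 of 3, of the Mier and histone deacetylase list 0 of 1 and 0 of 2, and of the RNA nucleases 0 of 1 and 0 of 2. In the 1084 plated total thymocytes the signal was 3.19 at Arpp21, 2.02 at Endou, 4.38 at Rmnd5a, 2.96 at Mier1 and 1.96 at Gm4258. Endou, Rmnd5a and Mier1 were higher there than in each of the 4 sorts, and a difference in preparation cannot be told apart from one in the cells.

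**Figure D4:**
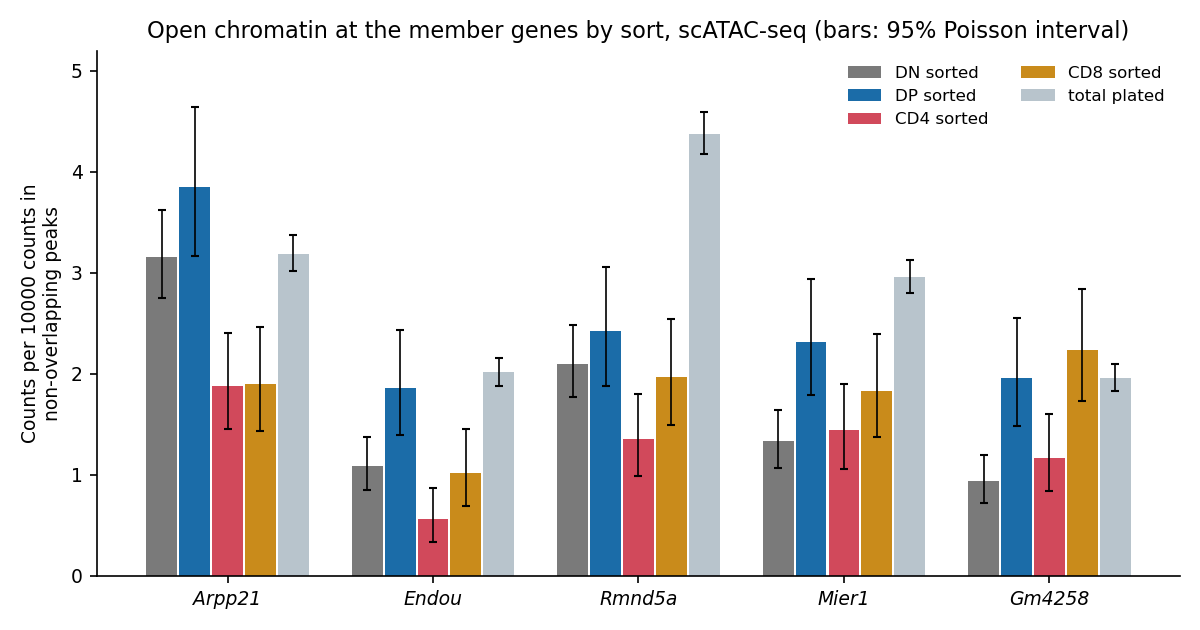
Counts in the non-overlapping peaks of each member locus per 10000 counts in all such peaks (y axis) by sort (colours) and gene (x axis). Lines are 95% Poisson intervals of the summed counts. DP sorted cells lie above CD4 and CD8 sorted cells at Arpp21 (3.85 against 1.88 and 1.90), while at Gm4258 CD8 sorted cells (2.24) reach the DP level (1.96).

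Label numbers of the cells fall in runs, and the runs differ in depth. In the run from 4000, with 64 DP and 160 SP cells, the ratio of DP to SP was 1.79 for Arpp21, 2.62 for Endou, 1.69 for Rmnd5a, 1.18 for Mier1 and 1.09 for Gm4258. In the run from 31000, with 29 DP and 75 SP cells with medians of 1220 and 1274 counts per cell against 4097 and 5719, it was 2.90 for Arpp21 and 0.978 (0.311 to 2.67) for Rmnd5a, from 6 and 15 counts, and the other 3 had too few counts. For DP to DN the run from 4000, with 64 and 32 cells, gave 1.17 (0.760 to 1.83) for Arpp21, 2.32 (1.14 to 5.09) for Endou, 2.18 for Rmnd5a, 1.22 (0.683 to 2.21) for Mier1 and 2.13 (1.07 to 4.53) for Gm4258. Of the calls to DN, that of Mier1 was not seen in this run and Rmnd5a was past 1.5. DN cells of the runs from 1000, 2000 and 32000 (32, 32 and 62 cells) had no DP cells beside them.

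The signal was not spread evenly over the loci. The most counted Arpp21 peak, chr9:112206012-112210011, lies in an intron 27.9 kb into the gene and 9250 bases from the nearest annotated start, and its central sequence with 3 CAGCTG is the one shown above. It had 1.54 per 10000 in DP, 0.712 in DN, 0.264 in CD4 and 0.407 in CD8 sorted cells (44, 47, 9 and 12 counts), a ratio to SP of 4.67 (2.72 to 8.27) and to DN of 2.17 (1.40 to 3.34). The peak at the inner Arpp21 start, chr9:112215420-112219419, had ratios of 2.62 (1.3 to 5.33) and 1.29 (0.705 to 2.28). The peak nearest the annotated start of the gene, chr9:112233388-112237387, had 7 DP counts, 5 DN counts and 0 in SP sorted cells, too few for a ratio. The peak chr9:112173092-112177091, 60847 bases into the gene and named after its values were seen, went the other way at 0.627 (0.263 to 1.34) and 0.548 (0.233 to 1.15), with intervals that hold 1. The peak that holds the Mir128-2 hairpin had 20 counts in all cells used.

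At Endou the inner peak chr15:97719338-97723337, 10.0 kb into the gene with its center in an intron 175 bases from another annotated start of Endou, had 0.911 in DP, 0.454 in DN, 0.264 in CD4 and 0.373 in CD8 sorted cells. Its ratio was 2.90 (1.56 to 5.47) to SP and 2.00 (1.14 to 3.51) to DN. The peak at the outer Endou start, chr15:97729316-97733315, had 1.91 (0.959 to 3.76) and 1.89 (0.957 to 3.7). At Rmnd5a the start peak, chr6:71438747-71442746, held most counts of the locus and was near even, with 1.18 (0.803 to 1.71) and 0.964 (0.665 to 1.38). A second Rmnd5a peak, chr6:71394250-71398249, 33 bases from an inner start and over an exon, had 3.34 (1.26 to 9.43) to SP, from 12 and 8 counts.

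At Mier1 the start peak, chr4:103112482-103116481, which also covers an exon of Wdr78, had 1.41 (0.927 to 2.14) to SP and 1.89 (1.21 to 2.93) to DN. At Gm4258 the start peak, chr1:137896554-137900553, had 0.911 in DP, 0.530 in DN, 0.850 in CD4 and 1.49 in CD8 sorted cells, ratios of 0.794 (0.487 to 1.26) and 1.72 (0.993 to 2.94). The Gm4258 peak with both miR-181 hairpins had 16 counts in all cells used. Over the 5 loci, 10 peaks had 20 counts or more in the cells compared. A ratio to SP of 2 or more was found in 4 of these 10, against 10.7% of 13455 such peaks, and a ratio to DN of 2 or more in 2 of 10, against 11.6% of 13613. The share for DP to SP stood above that of all peaks, and that for DP to DN rests on 2 peaks, at Arpp21 and Endou.

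**Figure D5:**
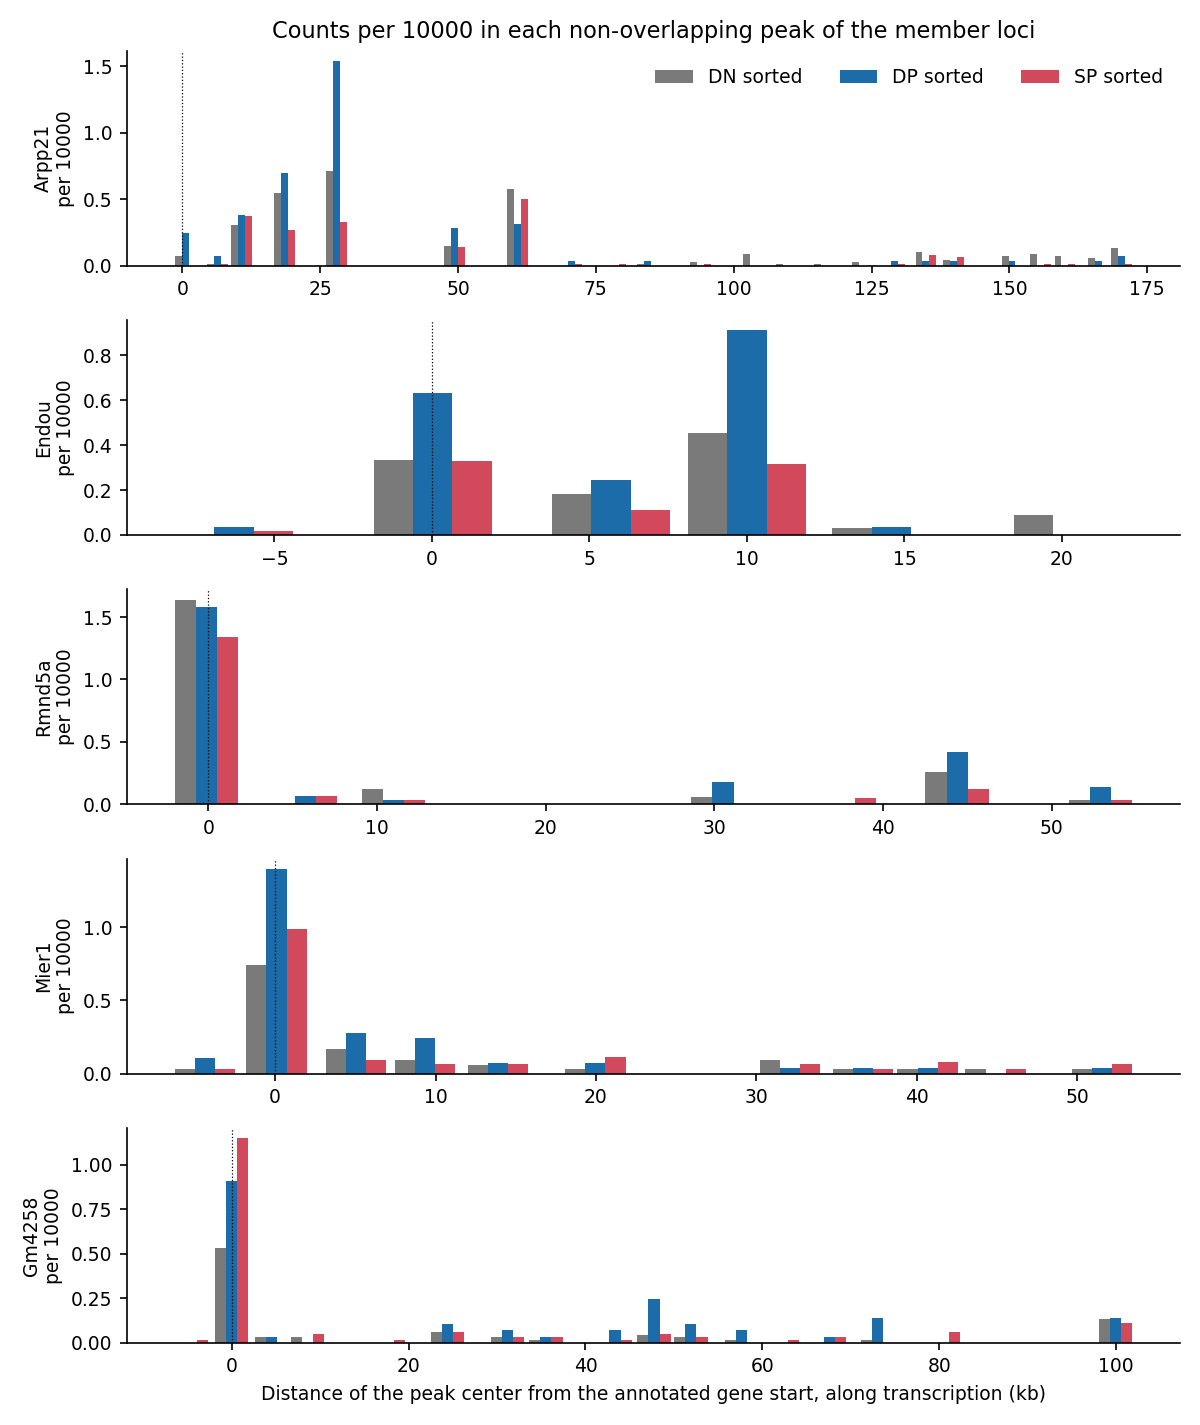
Counts per 10000 (y axis) in each non-overlapping peak of the 5 loci by distance of the peak center from the annotated gene start (x axis, kb along transcription), in DN, DP and SP (CD4 and CD8) sorted cells. DP stands over SP at the Arpp21 peak 27.9 kb into the gene (1.54 against 0.33), at the low Rmnd5a peak 44.4 kb into the gene (0.420 against 0.126) and at the Endou peak 10.0 kb into the gene (0.911 against 0.314), while the Gm4258 start peak does not favor DP (0.911 against 1.15).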

How the data were processed

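The members and the gene lists were chosen with earlier results of these data known. The authors deposited log2 values for the scRNA-seq cells, aligned with Cell Ranger 1.3.1 to GRCm38.p5 (the labels' processing notes also name hg38) and quantile-normalized. The table holds 1993 cells with 830 to 5025 detected genes, of which 1986 lie within the study's filter of 500 to 4500. Doublets were not called, and an alternative left out the 5% of cells with most genes per cluster. The authors deposited raw counts per cell in 138317 scATAC-seq peaks of 4000 bases, mapped with Bowtie2 and called with MACS2 on all cells merged. The genome build of that table is not given in the sources used here: 32.7% of peak centers lay within 2 kb of a GENCODE M21 start on GRCm38, against 14.3% after a shift of 100000 bases. Of its cell columns 1626 were used and 362 were not, 352 unplated cells and 10 cells whose group the labels do not give, so total thymus is plated cells only.

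Clusters were made in R 4.3.3 by Seurat 5.3.0 (1306 variable genes, 20 components, 30 neighbors, resolution 2). A cluster took the class with the best mean z score of fixed markers, if ahead by 0.2 and not contradicted by its top 10 genes. This way of naming was settled with the clusters already in view. Genes above 0 in 20% of the cells of a class were compared. To equalize depth, the distinct values of a cell were ranked as steps and thinned to 1300. Peaks were taken in order of total counts so that none overlapped, counts were summed per sort, and ratios of counts per 10000 were given exact conditional binomial intervals for genes with 100 counts and peaks with 20. Named were the members, the 3 genes most like each and the 10 most like their mean, the fixed lists, the peak nearest each start and the 3 most counted peaks. One gene of the fixed lists is not reported here. The computations were tested on simulated data.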

Additional observations from a re-analysis of the deposited data

How the results depend on the processing

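All 100 recomputed differences between classes kept their sign and moved by less than 1 SD over cells. That SD, from 1.05 (Gm4258) to 1.14 (Mier1), is a loose limit. It is larger than the difference from cycling cells of every member but Gm4258. Against cycling cells the alternatives ranged from 0.49 to 0.66 for Arpp21, 0.37 to 0.53 for Endou and 0.53 to 0.66 for Rmnd5a. They ranged from 0.72 to 0.88 for Mier1 and 1.05 to 1.38 for Gm4258. Of the calls at 0.5 log2, Arpp21 against cycling cells went to 0.49 when the unnamed clusters were given their best class, an alternative chosen after seeing the data, and thinned values, on the other scale of log2(steps + 1), gave Endou 0.53. On that scale Arpp21 minus DPsel-like cells was 1.11, Endou 0.98, Rmnd5a 0.77, Mier1 0.65 and Gm4258 0.98. With thinning the mean of Gm4258 in DPre-like cells was 1.92, and the shares of DPre-like cells with Arpp21, Endou, Rmnd5a, Mier1 and Gm4258 were 84.3%, 83.2%, 72.5%, 72.5% and 92.8%. Where detected meant a value above 1, they were 82.4%, 78.4%, 69.6%, 69.6% and 94.1%. At resolution 1 no cluster was SP-like, so that comparison was not run there.

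Of 73 recomputed chromatin ratios 63 stayed within the interval of the reported one. With only peaks within 2 kb of a start, Arpp21 was 3.00 to SP and 1.59 to DN, and Gm4258 was 0.794 to SP. With overlapping peaks included Mier1 was 2.10 to SP, and with CD4 sorted cells alone Gm4258 was 1.67, Rmnd5a 1.79 and Mier1 1.61, against 0.877, 1.23 and 1.26 with CD8 sorted cells alone. In the label run from 31000 Arpp21 was 2.90 to SP and 3.49 to DN, and Rmnd5a reversed to 0.978 to SP on 6 and 15 counts. In the run from 4000, Rmnd5a was 2.18 and Mier1 1.22 to DN. The cause of these shifts was not tested. No paired analysis was possible because each label number belongs to 1 cell, and ratios within runs of numbers stand in its place.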
